A study of Mus musculus with 25 samples.

Results

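Livers of 2-month-old mice whose hepatocytes lack Mcl-1 were compared with livers of hemizygous mice of the same age, on 3 arrays against 3. The 6 arrays were taken by genotype and age from the labels and belong to a series of 25. The knockout mice carry a hepatocyte-specific deletion of Mcl-1 and bear the animal numbers 137, 64 and 69. The hemizygous mice bear the numbers 27, 28 and 30, and 2 wild-type mice of the same age, 31 and 34, are quoted beside them. The mice were littermates by the study's design text and received no treatment. RNA came from homogenates of the whole liver, was labelled with Cy3 and was hybridised to single-colour Agilent arrays. The labels name neither the Cre driver nor the deleted part of the gene, nor the sex of a mouse, nor the hour of collection. Because the whole organ was homogenised, fewer cells of a type and less RNA per cell cannot be told apart in any value below.

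Mcl-1 is an anti-apoptotic member of the BCL-2 family. It binds BAK and BH3-only proteins at the outer mitochondrial membrane and so holds back the release of cytochrome c. Hepatocytes depend on it together with BCL-XL, and mouse livers without it are known for ongoing hepatocyte apoptosis, compensatory cell division and, with age, tumors.

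Values below are levels, which are log2 processed signals minus the 75th percentile of the array, so that levels are on a log2 scale. Of 41174 probes, between 64.2% and 73.1% were well above background on the 6 arrays and none was saturated. Correlations between the 6 arrays lay between 0.941 and 0.979. Hepatocyte markers bore out the tissue: Alb, the albumin gene, had levels of 10.15, 9.86 and 9.85 in knockout mice 137, 64 and 69, against 9.48, 9.88 and 9.91 in hemizygous mice 27, 28 and 30. Differences of knockout minus hemizygous were tested with limma on 27102 genes and unnamed transcripts, in 1 model of the 18 arrays without tumor tissue, and the Benjamini-Hochberg adjusted p had to lie under 0.05. The number of arrays limits the precision.

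The groups also differed in sex and slide. Xist, the RNA of the inactive X chromosome, had levels of -7.73, -7.98 and -0.61 in knockout mice 137, 64 and 69, against -0.63, -1.19 and -1.35 in hemizygous mice 27, 28 and 30. Ddx3y, a Y-linked helicase, had levels of 1.31, 0.77 and -7.18 in the same knockout mice, against -7.82, -7.92 and -6.40 in the hemizygous mice. Knockout mice 137 and 64 therefore carried the Y-linked pattern, and knockout mouse 69 the pattern of all 3 hemizygous mice. The wild-type mice differed from each other too. The mean level of 5 sex chromosome transcripts was -5.22 in wild-type 31 and -1.44 in wild-type 34, against -1.84 and -2.22 in knockouts 137 and 64. Knockout 137 lay on 1 slide with hemizygous 27 and 28, knockouts 64 and 69 lay on another, and hemizygous 30 on the slide of the wild-type mice. Knockout 137 minus the mean of hemizygous 27 and 28 is called the within-slide difference below. Knockout 69 minus the mean of the 3 hemizygous mice is called the Xist-matched difference. Each rests on 1 knockout array and has no test. Only 1 slide held both groups, so a fit with the slide as a block gives the within-slide difference again.

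Mcl1 itself (chr3:95656944-95663179, GRCm38.p6) was lower in every knockout liver. Its levels were 1.84, 1.53 and 2.09 in knockout mice 137, 64 and 69, 3.24, 3.20 and 3.58 in hemizygous mice 27, 28 and 30, and 4.02 and 4.50 in wild-type mice 31 and 34. The 3 genotypes did not overlap, and the hemizygous livers lay between the others. The difference was -1.52 ± 0.33 (SE, n = 3 against 3), a signal 2.87-fold higher in hemizygous liver, and did not pass (limma, adjusted p = 0.155). A second probe gave -2.28, with means of -1.02 in knockout and 1.26 in hemizygous liver. The within-slide difference of Mcl1 was -1.38 and the Xist-matched difference -1.25. With normexp correction and quantile normalisation the difference was -1.39 and passed (limma, adjusted p = 0.0418).

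In all, 14 of 27102 genes passed, which is 0.0517% of those tested. Of these, 9 were higher (0.0332%) and 5 lower (0.0184%) in knockout liver. They were tubulin Tubb2a, the neutrophil proteins S100a8 and S100a9, imprinted Phlda2, Rnf25, the S-phase factor E2f2, Lrfn3, Rps6kl1 and Cyp2c55 on the higher side, and Map2k6, Bnip3, Gpcpd1, Eif4ebp3 and Fkbp5 on the lower side. In each of the 14 the 3 knockout arrays did not overlap with the 3 hemizygous arrays, which was also true of 15.9% of all genes in the higher direction and 9.4% in the lower. The plot of Mcl1 and the 14 genes shows that the wild-type mice lay near the hemizygous mice in most of them. The split of higher and lower calls moved with the scaling: 19 higher and 46 lower with normexp correction and quantile normalisation, 2 and 2 with the array median, and 22 and 29 with the authors' series matrix.

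**Figure D1:**
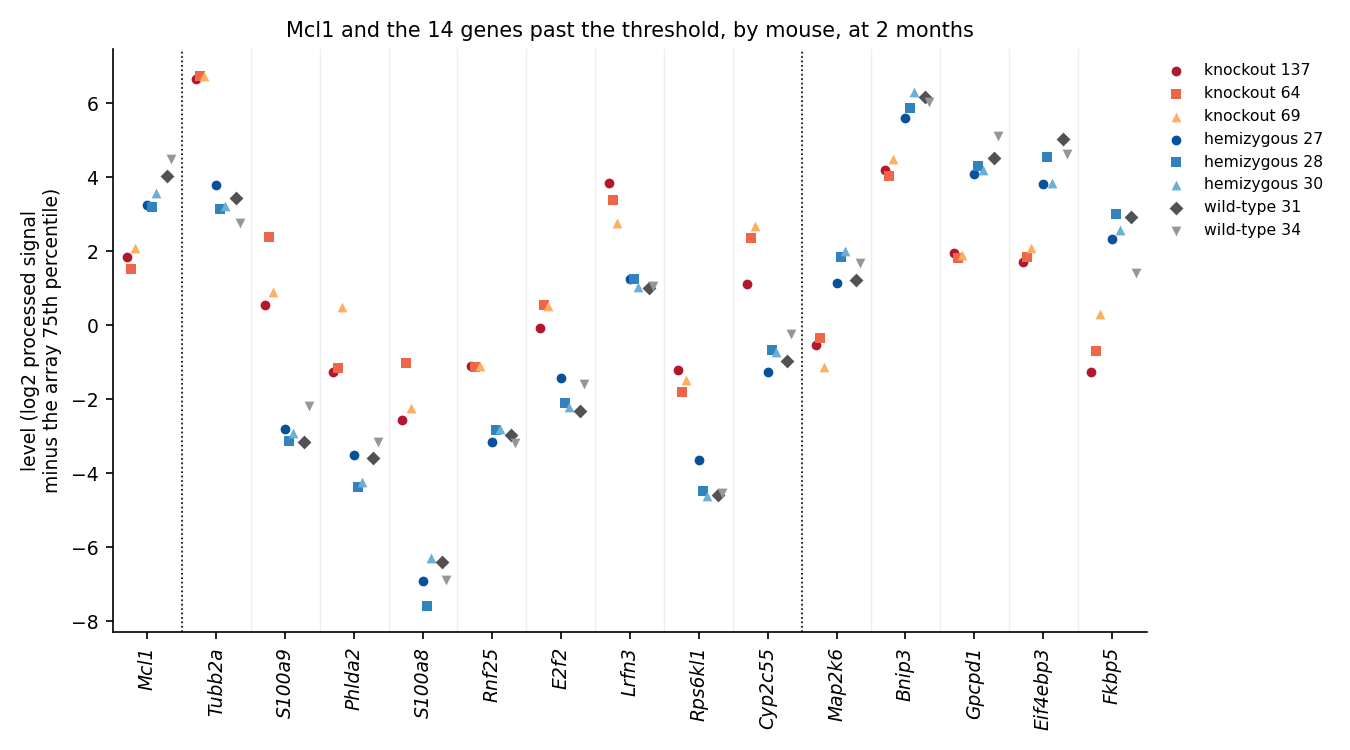
Levels of Mcl1 and of the 14 genes past the threshold (vertical axis, log2 processed signal relative to the 75th percentile of each array), 1 point per mouse, with 3 knockout, 3 hemizygous and 2 wild-type mice of 2 months. Genes between the dotted lines were higher in knockout liver and genes right of the second line lower, and in none do the knockout and hemizygous points overlap.

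The higher genes began with Tubb2a (chr13:34074278-34078008), a beta-tubulin of microtubules. Its levels were 6.64, 6.73 and 6.74 in knockout mice 137, 64 and 69, against 3.78, 3.15 and 3.21 in hemizygous mice 27, 28 and 30. The knockout values were nearly equal and lay far above all hemizygous values. Tubb2a rose by 3.33 ± 0.46 on the log2 scale, 10.03-fold (limma, adjusted p = 0.0253). Both of its other probes were higher too, by 3.25 and 2.45. The within-slide difference was 3.18 and the Xist-matched difference 3.36.

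S100a8 and S100a9 encode the subunits of calprotectin, which fills the cytoplasm of neutrophils and is also made by monocytes. S100a9 (chr3:90692630-90695721) had levels of 0.54, 2.39 and 0.88 in knockout mice 137, 64 and 69, against -2.79, -3.13 and -2.92 in hemizygous mice 27, 28 and 30. Knockout mouse 64 was highest, and the hemizygous values lay close together. S100a9 rose by 4.22 ± 0.60, 18.7-fold (limma, adjusted p = 0.0253). S100a8 (chr3:90669071-90670034) was not well above background on any hemizygous array, so its rise is given as at least 16.0-fold (limma, adjusted p = 0.0253). This bound sets the mean of the knockout arrays against the lowest signal among probes well above background on each hemizygous array, or the probe's own signal where that was higher. Measured levels of S100a8 were -2.56, -1.04 and -2.23 in the knockout mice, against -6.90, -7.59 and -6.30 in the hemizygous mice, again with knockout 64 highest. This fold depends on how dim signals are treated: the difference of S100a8 was 0.91 with normexp correction, where it did not pass (limma, adjusted p = 0.151), and 2.25 in the authors' series matrix, where it did (limma, adjusted p = 0.0461).

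Phlda2 (chr7:143501545-143503145), an imprinted gene known to restrain placental growth, had levels of -1.28, -1.16 and 0.49 in knockout mice 137, 64 and 69, against -3.50, -4.38 and -4.24 in hemizygous mice 27, 28 and 30. Here knockout 69 stood highest. Phlda2 rose by 3.39 ± 0.48, 10.48-fold (limma, adjusted p = 0.0253), and a second probe, well above background on 1 of the 3 hemizygous arrays, was higher by 3.68. E2f2 (chr4:136172274-136196057), a transcription factor of cell cycle entry, had levels of -0.09, 0.55 and 0.51 in knockout mice, against -1.43, -2.09 and -2.22 in hemizygous mice. It rose by 2.24 ± 0.33, 4.72-fold (limma, adjusted p = 0.0299). The lowest knockout array of E2f2 stood on the same slide as the highest hemizygous array, and the within-slide difference was 1.67.

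Rnf25 (chr1:74593748-74601397), a RING-type ubiquitin ligase, had levels of -1.11, -1.13 and -1.10 in knockout mice 137, 64 and 69, against -3.15, -2.83 and -2.82 in hemizygous mice 27, 28 and 30. Both groups were tight, and Rnf25 rose by 1.82 ± 0.27 (limma, adjusted p = 0.0289). Lrfn3 (chr7:30355514-30362772), an adhesion protein known from synapses, had levels of 3.85, 3.37 and 2.77 in knockout mice, against 1.23, 1.25 and 1.02 in hemizygous mice, and rose by 2.16 ± 0.33 (limma, adjusted p = 0.0299). Rps6kl1 (chr12:85135249-85151277), which resembles ribosomal S6 kinases, had levels of -1.22, -1.81 and -1.47 in knockout mice, against -3.64, -4.48 and -4.62 in hemizygous mice. It rose by 2.75 ± 0.43 by its brighter probe (limma, adjusted p = 0.0374), while its second probe, well above background on 2 arrays of each group, differed by -0.12, so its probes disagree. Cyp2c55 (chr19:39006940-39042690), a cytochrome P450 that oxidises arachidonic acid, had levels of 1.11, 2.36 and 2.67 in knockout mice, against -1.27, -0.68 and -0.72 in hemizygous mice, and rose by 2.94 ± 0.48, 7.68-fold (limma, adjusted p = 0.0446).

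Among the lower genes, Bnip3 and Fkbp5 have the best known roles. Bnip3 (chr7:138890836-138909506) encodes a BH3-type protein of the outer mitochondrial membrane that takes part in mitophagy and responds to hypoxia. Its levels were 4.205, 4.04 and 4.49 in knockout mice 137, 64 and 69, against 5.61, 5.88 and 6.30 in hemizygous mice 27, 28 and 30. All knockout values lay below all hemizygous values. Bnip3 differed by -1.68 ± 0.23, a signal 3.21-fold higher in hemizygous liver (limma, adjusted p = 0.0253). Fkbp5 (chr17:28398753-28486149), a co-chaperone of the glucocorticoid receptor and itself a target of it, had levels of -1.26, -0.70 and 0.30 in knockout mice, against 2.31, 3.01 and 2.57 in hemizygous mice and 2.91 and 1.41 in wild-type mice. Fkbp5 differed by -3.19 ± 0.51, a signal 9.12-fold higher in hemizygous liver (limma, adjusted p = 0.0432), and its other probes by -2.33 and -2.91.

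Map2k6 (chr11:110399102-110525522), a kinase that activates p38, had levels of -0.54, -0.34 and -1.12 in knockout mice 137, 64 and 69, against 1.15, 1.83 and 2.00 in hemizygous mice 27, 28 and 30. It fell by 2.33 ± 0.31 on the log2 scale (limma, adjusted p = 0.0253), and a second probe, well above background on 2 of the 3 knockout arrays, differed by -2.58. Gpcpd1 (chr2:132529082-132578248), which splits glycerophosphocholine, had levels of 1.96, 1.82 and 1.88 in knockout mice, against 4.07, 4.30 and 4.19 in hemizygous mice. It fell by 2.30 ± 0.36 (limma, adjusted p = 0.0374), and its other probes differed by -2.43 and -2.60. The spread within each group of Gpcpd1 was small beside the gap between groups. Eif4ebp3, a binding protein of the cap-binding factor eIF4E, had levels of 1.70, 1.84 and 2.08 in knockout mice, against 3.82, 4.56 and 3.83 in hemizygous mice. It fell by 2.20 ± 0.35 (limma, adjusted p = 0.0404), with a second probe at -2.35.

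The calls rest on few mice. None of the 14 passed without knockout 64, without hemizygous 28 or without hemizygous 30, nor in a fit of the 6 arrays alone, in which 0 genes passed by limma and 4603 had an unadjusted p under 0.05. Without knockout 69, 5 genes passed and without hemizygous 27, 6. When the slide entered as a block, the 46 calls held none of the 14, while each of the 14 kept its sign under every alternative in which it was tested. Normexp correction lowered several differences by over 1.5 times: S100a9 to 2.69, Phlda2 to 1.31, E2f2 to 1.37, Rnf25 to 0.75 and Rps6kl1 to 0.88. Phlda2 and Rps6kl1 did not pass there (limma, adjusted p = 0.0648 and 0.0540).

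Just below the threshold lay further genes, chosen by unadjusted p among those without overlap. The 12 on the higher side had adjusted p-values from 0.117 to 0.146 (limma) and included Saa1 and Saa2, which encode the acute phase protein serum amyloid A, Retnlg, a resistin-like gene of neutrophils, Tnfaip2, a gene induced by tumor necrosis factor, and Mthfd2, an enzyme of mitochondrial folate metabolism that is used by dividing cells. The others were Trim2, Spsb4, Ccnjl, Slc1a4, Slc41a2, Ocstamp and Robo1. Mthfd2 had levels of -1.94, -1.49 and -2.54 in knockout mice 137, 64 and 69, against -4.35, -5.31 and -4.19 in hemizygous mice 27, 28 and 30. The 12 on the lower side had adjusted p-values from 0.116 to 0.138 (limma) and included Foxo1, a transcription factor switched off by insulin, Pank1, an enzyme of coenzyme A synthesis, and St3gal5, which makes the ganglioside GM3. The others were N4bp2l1, Syt1, Kcnk5, Rhobtb1, Rapgef4, Arhgef26, Fchsd2, Arrdc2 and Fbxo31. Foxo1 had levels of 2.30, 2.28 and 2.16 in knockout mice, against 3.37, 3.47 and 3.92 in hemizygous mice, a difference of -1.34 ± 0.26. St3gal5 had levels of 3.63, 3.91 and 5.13 in knockout mice, against 6.33, 6.5997 and 7.07 in hemizygous mice, a difference of -2.45 ± 0.50.

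Gene groups were described by counts, because few single genes passed. For each of 40 lists the members measured, those whose 3 knockout arrays all lay above or below the 3 hemizygous arrays, and the median difference were counted. Over all genes these stand at 15.9% above, 9.4% below and a median of 0.06. Every count without overlap below is to be read beside these shares. An unadjusted p under 0.05 was found for 4.02% of all genes on the higher side and 4.27% on the lower. The chart of list members without overlap shows mitosis, macrophage and matrix genes on the higher side, and clock-controlled, fatty acid oxidation and glucocorticoid-responsive genes on the lower side.

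**Figure D2:**
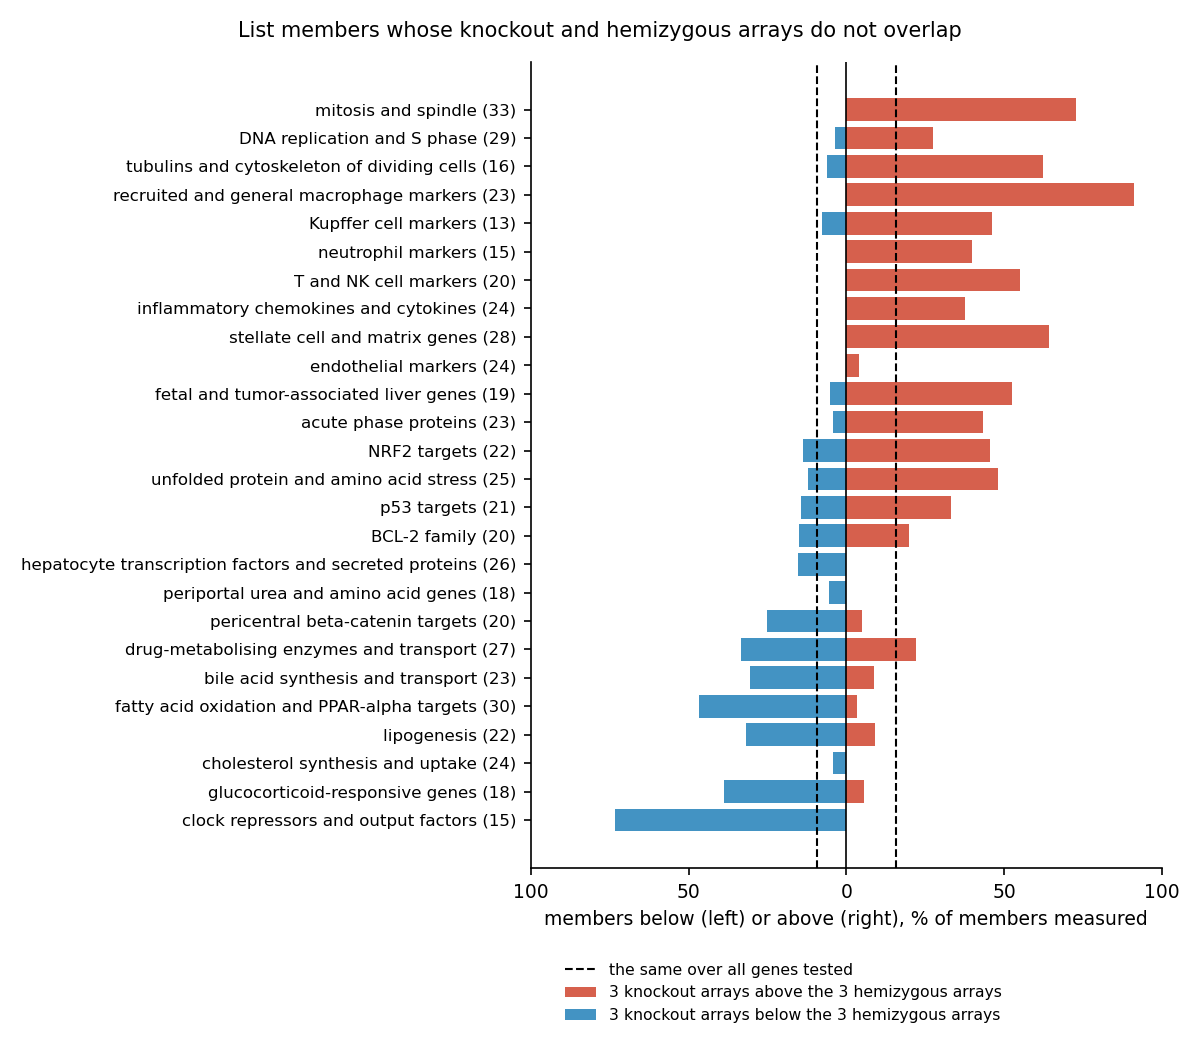
Share of each list's measured members (number in brackets) whose 3 knockout arrays all lay above (red, right) or below (blue, left) the 3 hemizygous arrays, in percent. Dashed lines mark the same shares over all 27102 genes, 15.9% above and 9.4% below, and 21 of 23 macrophage genes and 24 of 33 mitosis genes reach past the right line.

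Mitosis genes were higher in knockout liver almost throughout. Of 33 measured members, 32 had a positive difference, against 55.1% of all genes, 24 did not overlap on the higher side and none on the lower. The median difference was 2.13, against 0.06 over all genes, and 1.06 with normexp correction. By limma 0 members passed, while 25 had an unadjusted p under 0.05, all of them higher. The mean level of the list was -0.97, 0.68 and -1.76 in knockout mice 137, 64 and 69, against -2.38, -2.75 and -3.18 in hemizygous mice 27, 28 and 30. Knockout 64 was the highest of the 6 mice and hemizygous 30 the lowest, and the groups did not overlap.

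Cdc20, which activates the anaphase-promoting complex, had levels of 2.52, 4.66 and 1.46 in knockout mice 137, 64 and 69, against -0.01, -0.63 and -1.85 in hemizygous mice 27, 28 and 30. Its difference was 3.71 ± 0.89 (limma, adjusted p = 0.205). Aurka, the Aurora A kinase of spindle poles, had levels of 0.93, 2.81 and 0.66 in knockout mice, against -0.58, -1.05 and -1.12 in hemizygous mice, a difference of 2.38 ± 0.60 (limma, adjusted p = 0.248). In both genes knockout 64 was highest and the lowest knockout mouse still exceeded every hemizygous mouse. Ccnb1, the mitotic cyclin B1, differed by 3.39 ± 1.09, Ube2c, a ubiquitin-conjugating enzyme that works with the anaphase-promoting complex, by 2.43 ± 0.67, and Nek2, a centrosome kinase, by 2.11 ± 0.60 (limma, adjusted p = 0.398, 0.305 and 0.316). Pttg1, which encodes securin, was the one member with a negative difference, and it was named after its values were seen. Without knockout 64 the same number of members, 24, did not overlap on the higher side, against 19.5% of all genes. Knockout 69 alone lay above all hemizygous mice in 24 members, against 35.9% of all genes, and knockout 137 above both hemizygous mice of its slide in 30, against 45.4%.

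Mitotic genes are known to share a cell cycle homology region, whose core is TTTGAA, and CCAAT boxes that bind NF-Y. Promoters of 300 bases, from 250 before to 50 after the start, were found in RefSeq (GRCm38.p6) for 29 of the 33 members and searched on both strands. A gene counted if any of its promoters held the motif. TTTGAA was present in 19 of the 29 (65.5%), against 20.2% of 27025 genes with a promoter, and CCAAT in 21 (72.4%), against 41.1%. The promoters of Cdc20 and Aurka are shown because they hold TTTGAA and have the smallest p in the list. The Cdc20 promoter lies at chr4:118437294-118437593 and that of Aurka at chr2:172370521-172370820, both on the minus strand, and capitals mark TTTGAA, which begins at -18 in Cdc20 and at 32 in Aurka from the start given in the table.
Cdc20: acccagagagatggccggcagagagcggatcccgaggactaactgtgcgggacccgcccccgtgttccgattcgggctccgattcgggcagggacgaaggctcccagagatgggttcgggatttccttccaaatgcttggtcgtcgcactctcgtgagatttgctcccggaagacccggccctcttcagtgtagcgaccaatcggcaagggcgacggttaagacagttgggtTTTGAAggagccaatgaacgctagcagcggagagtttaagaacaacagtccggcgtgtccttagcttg
Aurka: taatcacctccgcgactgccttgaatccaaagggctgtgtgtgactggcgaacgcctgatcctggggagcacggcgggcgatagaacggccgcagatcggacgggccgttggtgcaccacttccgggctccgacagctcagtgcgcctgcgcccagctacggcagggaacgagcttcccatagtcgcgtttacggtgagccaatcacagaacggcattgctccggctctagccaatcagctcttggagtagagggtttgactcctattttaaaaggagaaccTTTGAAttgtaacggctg
No printed TTTGAA overlaps a CCAAT box, and the match of letters does not show that the sites are used.

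**Figure D3:**
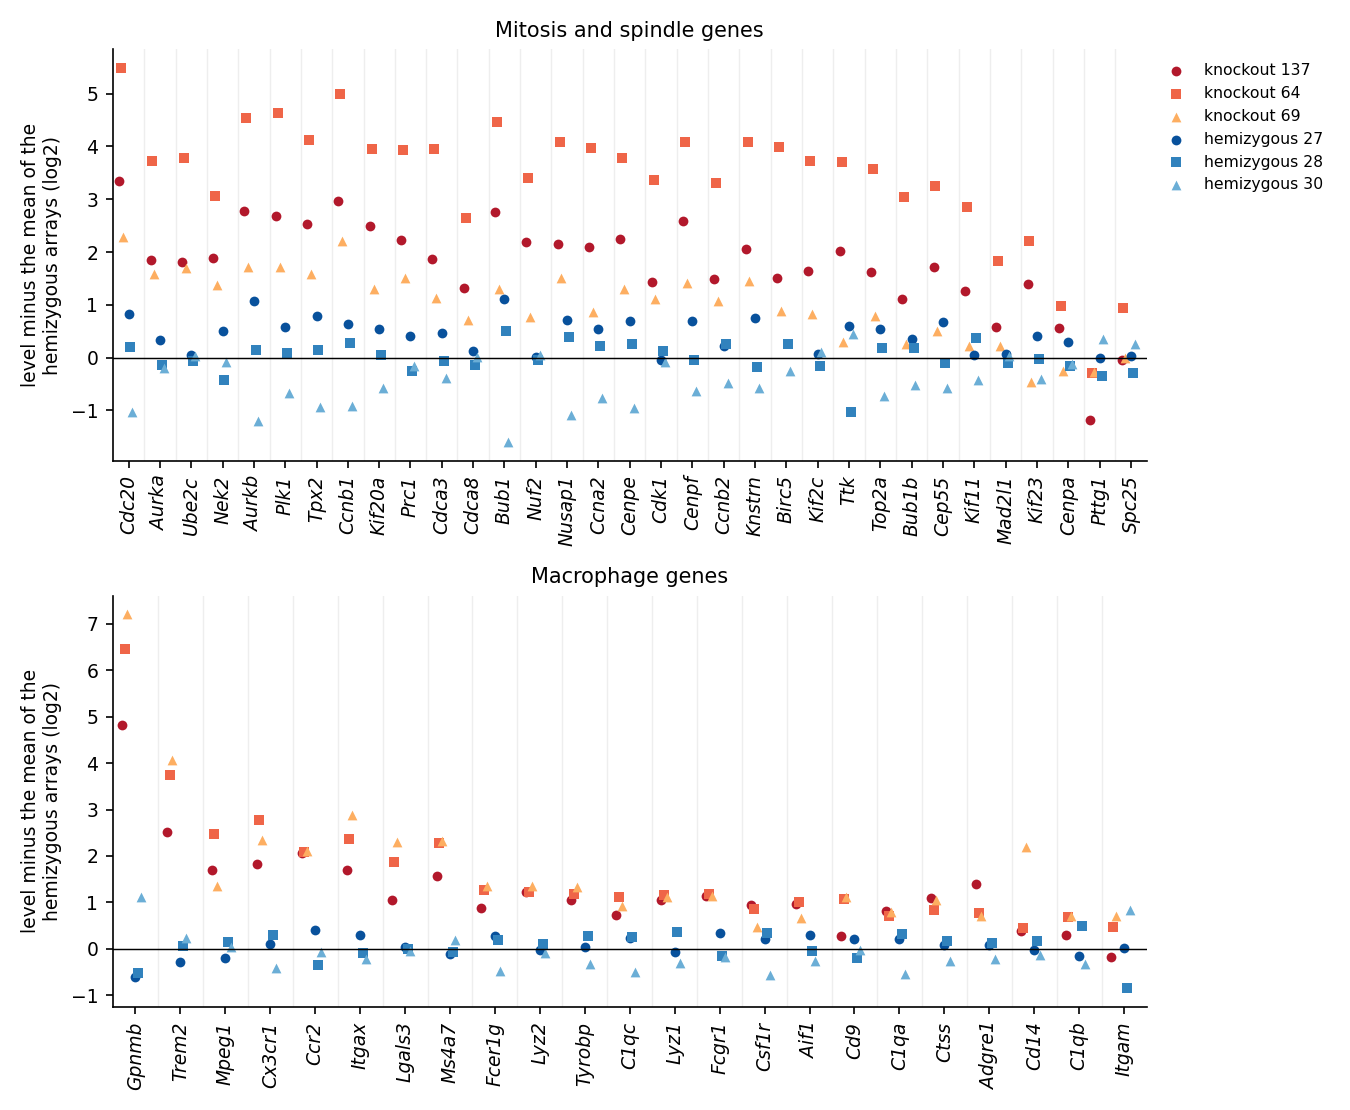
Levels minus the mean of the 3 hemizygous mice (vertical axes, log2) for the 33 mitosis genes (top) and the 23 macrophage genes (bottom), 1 point per mouse, ordered by p. Knockout 64 (square) is highest in most mitosis genes, while the 3 knockout mice lie closer together in macrophage genes.

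Genes of DNA replication stood less apart. Of 29 measured, 25 had a positive difference, 8 did not overlap on the higher side and 1 on the lower, and the median was 0.60. With the slide as a block the median was -0.02. Without knockout 64, 8 members lay above and 5 below without overlap, against 19.5% and 13.1% of all genes. E2f2 was the member that passed. Prim1, a DNA primase subunit, had levels of -0.24, 0.86 and 0.11 in knockout mice 137, 64 and 69, against -0.62, -1.18 and -1.08 in hemizygous mice 27, 28 and 30. Ccne2, which encodes cyclin E2, lay lower, with -4.45, -3.27 and -4.58 in knockout mice, against -2.57, -3.16 and -2.58 in hemizygous mice, and differed by -1.33 ± 0.61 (limma, adjusted p = 0.596).

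Among 16 tubulins and cytoskeletal genes of dividing cells, 14 had a positive difference, 10 did not overlap on the higher side and 1 on the lower, and the median was 1.05. Tubb2a passed, as given above. Tubb5 had levels of 4.66, 5.20 and 4.97 in knockout mice 137, 64 and 69, against 3.48, 3.14 and 3.42 in hemizygous mice 27, 28 and 30. Tubb6 had levels of 2.61, 3.85 and 4.06 in knockout mice, against 1.69, 1.06 and 1.30 in hemizygous mice. In both beta-tubulins the groups lay apart, and neither passed (limma, adjusted p = 0.187 and 0.193). DNA damage genes had a median of 0.71 over 18 measured members, or 0.20 with normexp correction, 1 of which did not overlap on the higher side. H2ax, the histone marked at DNA breaks, had levels of 2.98, 4.04 and 4.38 in knockout mice, against 2.57, 2.46 and 3.05 in hemizygous mice, so that the groups overlapped.

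Macrophage genes were the list with the largest share without overlap among the 40. All 23 measured members had a positive difference, 21 did not overlap on the higher side and none on the lower, and the median was 1.15. None passed by limma (0 of 23), 11 had an unadjusted p under 0.05, and 5 passed in the fit of the 8 arrays of 2 months. The mean level of the list was 1.05, 1.43 and 1.53 in knockout mice 137, 64 and 69, against -0.16, -0.17 and -0.33 in hemizygous mice 27, 28 and 30. The knockout mice differed little from each other. Knockout 69 alone lay above all hemizygous mice in 22 members, against 35.9% of all genes. Knockout 137 lay above those of its slide in 21, against 45.4%.

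Gpnmb, a glycoprotein of lipid-laden macrophages, was well above background on all knockout arrays and on no hemizygous array, and differed at least 38.7-fold (limma, adjusted p = 0.146). Its log2 difference was 1.89 with normexp correction and 3.72 in the authors' series matrix. Its measured levels were -1.92, -0.28 and 0.46 in knockout mice 137, 64 and 69, against -7.35, -7.25 and -5.62 in hemizygous mice 27, 28 and 30. Trem2, a lipid-sensing receptor of the same cells, had levels of 0.59, 1.81 and 2.15 in knockout mice, against -2.21, -1.87 and -1.69 in hemizygous mice, a difference of 3.44 ± 0.86 (limma, adjusted p = 0.237). Both genes were lowest in knockout 137 and highest in knockout 69. Cx3cr1, the fractalkine receptor of monocytes, differed by 2.31 ± 0.70, and Mpeg1, the pore-forming perforin-2 of macrophages, by 1.85 ± 0.49 (limma, adjusted p = 0.369 and 0.275). With normexp correction Cx3cr1 differed by 0.71 and Mpeg1 by 1.85.

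Markers of Kupffer cells, the resident macrophages of the liver, had a median of 0.41 over 13 members, with 6 above and 1 below without overlap. Marco, a scavenger receptor, had levels of 3.80, 3.98 and 4.07 in knockout mice 137, 64 and 69, against 2.56, 1.91 and 1.62 in hemizygous mice 27, 28 and 30. Clec4f, a lectin that marks Kupffer cells in the mouse, had levels of 3.56, 3.33 and 3.01 in knockout mice, against 3.07, 3.22 and 2.51 in hemizygous mice. Marco therefore lay apart between the groups and Clec4f overlapped.

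Of 15 neutrophil markers, 12 had a positive difference, 6 did not overlap on the higher side, S100a8 and S100a9 passed, and the median was 1.42. With normexp correction the median was 0.15, and in the authors' series matrix 0.52. Retnlg was not well above background on any hemizygous array and was at least 5.52-fold higher in knockout liver (limma, adjusted p = 0.127), with a log2 difference of 0.52 after normexp correction. Its levels were -4.78, -1.74 and -3.92 in knockout mice 137, 64 and 69, against -7.90, -7.72 and -6.99 in hemizygous mice 27, 28 and 30. Markers of T and natural killer cells had a median of 0.76 over 20 members, with 11 above and none below without overlap, and 0 passed by limma while 5 had an unadjusted p under 0.05 on the higher side and 1 on the lower. Their median was 0.11 with normexp correction and 0.42 in the authors' series matrix. Prf1, the perforin of cytotoxic cells, was at least 2.32-fold higher in knockout liver (limma, adjusted p = 0.569), 2 of the 3 knockout arrays measured it above background, and its log2 difference was 0.13 with normexp correction. B and plasma cell markers had a median of 0.77 over 12 members, or 0.17 with normexp correction, with 5 above and none below without overlap. Ms4a1, the B cell antigen CD20, had levels of -2.95, -3.12 and -4.56 in knockout mice, against -4.81, -5.00 and -5.15 in hemizygous mice.

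Inflammatory chemokines and cytokines had a median of 0.66 over 24 members, with 9 above and none below without overlap. No member passed (limma, 0 calls), and 6 had an unadjusted p under 0.05, all higher. With normexp correction the median was 0.23. Ccl3, a chemokine made by macrophages, was at least 3.98-fold higher in knockout liver (limma, adjusted p = 0.153), and its log2 difference was 0.27 with normexp correction. Ccl2, which draws monocytes through the receptor Ccr2, had levels of -0.61, -1.65 and 0.24 in knockout mice 137, 64 and 69, against -2.72, -3.42 and -3.17 in hemizygous mice 27, 28 and 30, a difference of 2.43 ± 0.69 (limma, adjusted p = 0.316). Every knockout mouse exceeded every hemizygous mouse in Ccl2. Il1b overlapped, with -0.70, -1.99 and -1.21 in knockout mice, against -2.93, -1.75 and -3.76 in hemizygous mice.

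Stellate cell and matrix genes, which build scar tissue, were higher in 18 of 28 members without overlap and lower in none. The median was 0.77, and 25 had a positive difference. By limma 0 passed and 6 had an unadjusted p under 0.05, all higher. Loxl1, a cross-linker of elastin, had levels of -0.24, 0.38 and 0.15 in knockout mice 137, 64 and 69, against -1.26, -1.11 and -2.38 in hemizygous mice 27, 28 and 30. Col1a1, a chain of collagen I, had levels of 2.84, 3.78 and 2.999 in knockout mice, against 2.02, 1.51 and 1.47 in hemizygous mice. Pdgfrb, the growth factor receptor of stellate cells, had levels of 1.67, 1.77 and 1.55 in knockout mice, against 0.85, 0.49 and 0.14 in hemizygous mice. All 3 genes lay apart between groups and none passed (limma, adjusted p = 0.397, 0.679 and 0.432). Acta2, the smooth muscle actin of activated stellate cells, overlapped, with 1.89, 2.34 and 3.12 in knockout mice, against 1.70, 1.89 and 1.12 in hemizygous mice. Knockout 69 alone lay above all hemizygous mice in 25 of the 28 members, against 35.9% of all genes.

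Endothelial markers had a median of -0.33 over 24 members, with 1 above and none below without overlap. Their mean level was 0.42, -0.60 and 0.14 in knockout mice 137, 64 and 69, against 0.40, 0.37 and 0.07 in hemizygous mice 27, 28 and 30, so knockout 64 was low and the others overlapped. Without knockout 64, 5 of the 24 members lay above without overlap, a share close to the 19.5% of all genes. None lay below, against 13.1% of all genes. With the slide as a block the median was 0.12. The part of immune, matrix and endothelial markers in the differences of other gene groups was not tested.

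Clock genes divided by role. In the liver clock Arntl and Clock form the activator that binds E-boxes and drives Per, Cry, Dbp and Nr1d1, whose products repress it or carry the rhythm to further genes. Of 15 clock repressors and output factors, 14 had a negative difference, 11 did not overlap on the lower side and none on the higher, and the median was -2.17, or -1.27 with normexp correction. Of these 0 passed by limma, while 12 had an unadjusted p under 0.05, all lower. Cry2 gave no value on the array of knockout 69 and was fitted without it. The mean level of the list was -1.82, -0.66 and 0.14 in knockout mice 137, 64 and 69, against 1.47, 1.51 and 1.33 in hemizygous mice 27, 28 and 30. The hemizygous mice lay within a narrow range, and knockout 137 was lowest.

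Tef, a PAR-type leucine zipper factor like Dbp, had levels of 0.49, 1.70 and 2.27 in knockout mice 137, 64 and 69, against 3.92, 3.97 and 3.84 in hemizygous mice 27, 28 and 30, a difference of -2.43 ± 0.56 (limma, adjusted p = 0.179). Dbp had levels of -0.20, 3.80 and 4.76 in knockout mice, against 7.03, 6.30 and 6.68 in hemizygous mice. Per1 had levels of -1.74, -1.17 and 0.97 in knockout mice, against 1.99, 2.21 and 1.61 in hemizygous mice, a difference of -2.58 ± 0.70 (limma, adjusted p = 0.292). All 3 genes were lowest in knockout 137 and highest, among the knockout mice, in knockout 69. Usp2, a deubiquitinase under clock control, had levels of -2.56, -2.04 and 0.49 in knockout mice, against 2.76, 3.81 and 3.09 in hemizygous mice. Wee1, which holds back entry into mitosis and is driven by the clock in mouse liver, had levels of -5.01, -4.10 and -5.04 in knockout mice, against -1.78, -1.51 and -2.39 in hemizygous mice, a difference of -2.82 ± 0.65 (limma, adjusted p = 0.179). Per2 differed by -1.91 by its brighter probe and by 0.43 by a second one, so its probes disagree.

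The 7 clock activators measured had a median of 0.65, or 0.09 with normexp correction, with 2 above and 1 below without overlap. Arntl had levels of 2.58, 2.25 and 0.44 in knockout mice 137, 64 and 69, against -2.70, -1.78 and -1.65 in hemizygous mice 27, 28 and 30. Its difference was 3.79 ± 0.83 (limma, adjusted p = 0.155), opposite in sign to that of Per1, Tef and Dbp. Clock had levels of 1.68, 1.03 and 0.86 in knockout mice, against -0.09, -0.04 and 0.17 in hemizygous mice. Both activators were highest in knockout 137 and lowest, among the knockout mice, in knockout 69, where Tef, Dbp and Per1 were nearest to hemizygous levels. Nr1d1, which encodes REV-ERB alpha, overlapped, with -0.46, 1.52 and 0.49 in knockout mice, against 0.47, -0.25 and -1.26 in hemizygous mice, and its difference changed sign with the slide as a block. Clock transcripts swing over the day, the hour of collection is not in the labels, and its part in these differences was not tested. For Arntl the within-slide difference was 4.82 and the Xist-matched difference 2.48.

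Promoters of 12 of the 15 repressors and output factors were found. The E-box CACGTG was present in 4 (33.3%), against 8.09% of all genes with a promoter. The D-box, searched as TTATGTAA or TTACGTAA, was present in 1 (8.33%), that of Per3, against 1.23%. The promoters of Tef and Per1 are shown because they hold the E-box and have the smallest p among the 4. That of Tef lies at chr15:81802423-81802722 and that of Per1 at chr11:69098699-69098998, both on the plus strand in GRCm38.p6 by RefSeq. Capitals mark the E-box, which begins at -127 in Tef and at -166 in Per1. The Per1 start given in the table lies inside the annotated gene (chr11:69095108-69109965).
Tef: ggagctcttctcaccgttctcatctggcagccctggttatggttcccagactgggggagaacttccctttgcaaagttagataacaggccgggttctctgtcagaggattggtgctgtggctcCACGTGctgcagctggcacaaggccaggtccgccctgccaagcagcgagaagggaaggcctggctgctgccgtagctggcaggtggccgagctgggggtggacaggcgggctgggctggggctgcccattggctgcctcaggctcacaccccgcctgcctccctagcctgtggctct
Per1: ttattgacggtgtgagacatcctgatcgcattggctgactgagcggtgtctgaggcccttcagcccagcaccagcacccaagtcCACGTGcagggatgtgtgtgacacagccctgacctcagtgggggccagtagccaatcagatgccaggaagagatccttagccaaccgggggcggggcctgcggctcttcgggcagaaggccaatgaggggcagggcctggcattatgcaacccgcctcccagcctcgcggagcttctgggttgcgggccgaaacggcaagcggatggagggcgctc
No printed E-box overlaps a D-box.

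**Figure D4:**
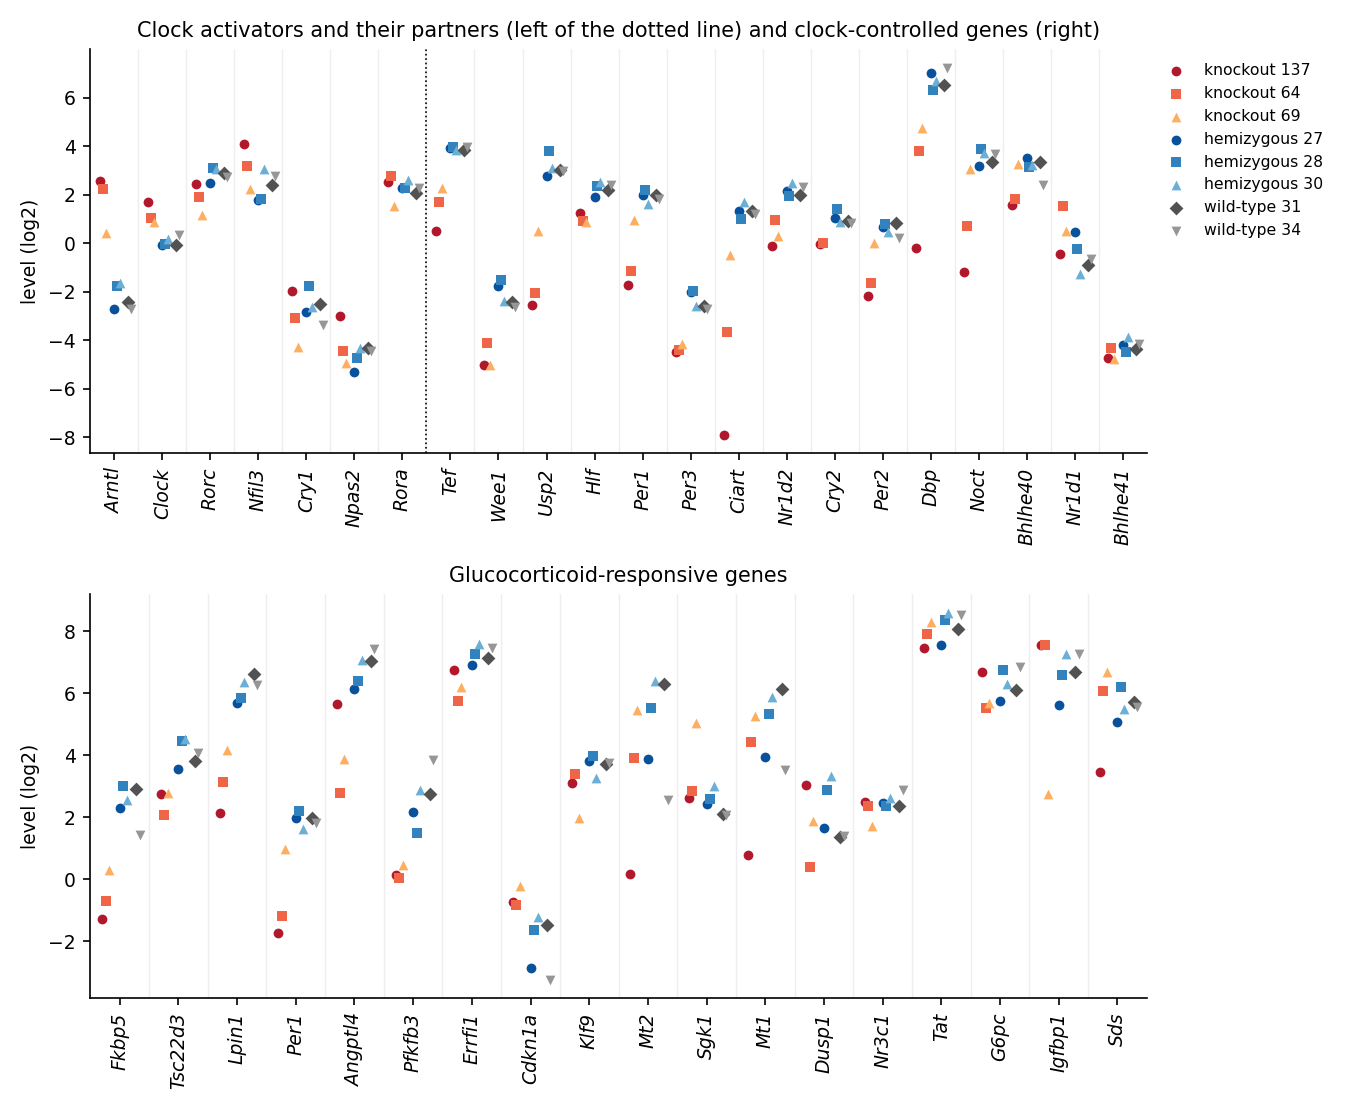
Levels (vertical axes, log2) of the clock activators and clock-controlled genes (top) and of glucocorticoid-responsive genes (bottom), 1 point per mouse, ordered by p within each set. Arntl and Clock lie higher in the 3 knockout mice, while Tef, Per1 and Dbp and, in the lower panel, Fkbp5 lie below all hemizygous mice.

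Glucocorticoid-responsive genes tended to lie lower, with a median of -0.94 over 18 members, 7 below and 1 above without overlap, and Fkbp5 was the member that passed. Tsc22d3, which encodes the leucine zipper GILZ, had levels of 2.76, 2.06 and 2.78 in knockout mice 137, 64 and 69, against 3.55, 4.45 and 4.53 in hemizygous mice 27, 28 and 30, a difference of -1.64 ± 0.37 (limma, adjusted p = 0.175). Lpin1, a phosphatidate phosphatase, had levels of 2.15, 3.13 and 4.18 in knockout mice, against 5.69, 5.84 and 6.36 in hemizygous mice, a difference of -2.81 ± 0.65 (limma, adjusted p = 0.179). Both genes lay apart between groups. Cdkn1a, which encodes the cell cycle inhibitor p21, went the other way and is described with the p53 targets. Per1 belongs to this list as well as to the clock list. The motif TGTTCT was present in 3 of 15 members with a promoter (20%), against 21.3% of all genes with one.

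Fatty acid oxidation genes and PPAR-alpha targets had a median of -0.49 over 30 members, with 14 below and 1 above without overlap. In limma's test 0 passed, and 7 had an unadjusted p under 0.05 on the lower side and 1 on the higher. Cpt1a, the gate of fatty acid entry into mitochondria, had levels of 4.33, 4.57 and 4.73 in knockout mice 137, 64 and 69, against 5.89, 5.53 and 5.79 in hemizygous mice 27, 28 and 30. It lay lower in every knockout mouse and did not pass (limma, adjusted p = 0.28). Pdk4, which blocks pyruvate dehydrogenase, was the member above without overlap, with 1.74, 1.12 and 0.57 in knockout mice, against -1.47, -1.30 and -0.76 in hemizygous mice.

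Cholesterol synthesis genes had a median of -0.61 over 24 members and only 1 without overlap, Tm7sf2, on the lower side. Their mean level was 3.81, 5.07 and 3.60 in knockout mice 137, 64 and 69, against 5.04, 4.73 and 4.41 in hemizygous mice 27, 28 and 30. Knockout 64 exceeded all hemizygous mice and the other knockout mice lay below them, and without knockout 64 the number below without overlap was 18, against 13.1% of all genes. By limma 0 members passed and 4 had an unadjusted p under 0.05, all lower. Promoters were found for 16 of the 24 members. A CCAAT box was present in 15 of the 16 (93.8%), against 41.1% of all genes with a promoter. The sterol regulatory element, searched as 1 fixed string of letters, was present in none, against 27 of 27025 genes with a promoter (0.0999%). A string this rare is expected to be absent from 16 genes of any kind, so the search cannot show whether these genes have such elements.

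Lipogenesis genes had a median of -0.44 over 22 members, with 7 below and 2 above without overlap. Without knockout 64, 12 lay below, against 13.1% of all genes. Dgat2, which makes triglycerides, had levels of 7.43, 7.27 and 7.45 in knockout mice 137, 64 and 69, against 7.94, 8.21 and 8.43 in hemizygous mice 27, 28 and 30. Lpin2 had levels of 0.82, 1.37 and 0.40 in knockout mice, against 2.16, 2.50 and 2.48 in hemizygous mice. Neither passed (limma, adjusted p = 0.382 and 0.237). Bile acid genes had a median of -0.34 over 23 members, with 7 below and 2 above. Cyp7a1, the rate-limiting enzyme of bile acid synthesis, had levels of 1.81, 2.87 and 4.22 in knockout mice, against 4.601, 5.68 and 4.67 in hemizygous mice. Slc10a1, the sodium-dependent bile acid importer, had levels of 5.09, 4.80 and 4.37 in knockout mice, against 6.08, 6.44 and 5.92 in hemizygous mice, a difference of -1.39 ± 0.41 (limma, adjusted p = 0.363). Akr1d1, a reductase of the same pathway, differed by -1.57 ± 0.34 (limma, adjusted p = 0.155). All 3 bile acid genes lay lower in every knockout mouse.

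Transcription factors and secreted proteins of hepatocytes had a median of -0.09 over 26 members, 13 of them positive, with 4 below and none above without overlap. Without knockout 64, 7 lay below and 1 above, against 13.1% and 19.5% of all genes. Hnf4a, a master regulator of the hepatocyte, had levels of 3.65, 3.74 and 3.71 in knockout mice 137, 64 and 69, against 3.78, 4.03 and 4.28 in hemizygous mice 27, 28 and 30, a difference of -0.33 ± 0.30. Nr1i3, the xenobiotic receptor CAR, had levels of 1.88, 1.32 and 1.70 in knockout mice, against 3.39, 3.51 and 3.61 in hemizygous mice, and Cebpb, a factor of the acute phase, 1.68, 2.08 and 2.06 in knockout mice, against 3.11, 3.85 and 3.40 in hemizygous mice. These lay lower in every knockout mouse and did not pass (limma, adjusted p = 0.496 and 0.258). Periportal urea and amino acid genes had a median of -0.03 over 18 members and 1 without overlap. Pericentral targets of beta-catenin had a median of -0.17 over 20 members, with 5 below and 1 above without overlap, and a median of 0.04 with the slide as a block. Glul, the glutamine synthetase of cells around the central vein, had levels of 5.77, 4.65 and 5.57 in knockout mice, against 5.79, 5.86 and 6.32 in hemizygous mice.

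Drug-metabolising enzymes were mixed, with a median of -0.40 over 27 members, 9 below and 6 above without overlap, and Cyp2c55 as the member that passed. Cyp3a11, the main xenobiotic-oxidising Cyp3a enzyme of mouse liver, had levels of 8.74, 9.06 and 8.85 in knockout mice 137, 64 and 69, against 7.84, 7.95 and 7.65 in hemizygous mice 27, 28 and 30. Cyp3a16, Cyp3a41a and Cyp3a44 also lay above all hemizygous mice in every knockout mouse, but these genes are near-identical copies and their probes may share signal. The difference of Cyp3a44 turned negative as a mean over its probes. Cyp2b9, which in mouse liver is mainly a female enzyme, had levels of 1.29, 1.55 and 6.04 in knockout mice, against 6.14, 6.41 and 6.21 in hemizygous mice and 6.26 and 2.54 in wild-type mice 31 and 34. Knockout 69 lay with the hemizygous mice, and knockouts 137 and 64 lay far below. Cyp3a16 and Cyp3a44, which are also female-biased genes, did not follow this split.

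The mean levels of the sex-biased lists showed the split seen in Cyp2b9. Female-biased genes had a median of -2.22 over 27 members, with 13 below and 3 above without overlap, and a median of -0.41 with the Xist level as a covariate and -1.20 with normexp correction. Their mean level was -0.52, 0.49 and 3.37 in knockout mice 137, 64 and 69, against 3.16, 3.66 and 2.92 in hemizygous mice 27, 28 and 30. Male-biased genes had a median of 0.29 over 18 members, with 1 above and 1 below, and their median changed sign with the Xist level as a covariate. Their mean level was 6.46, 5.58 and 3.10 in knockout mice, against 4.41, 4.61 and 5.23 in hemizygous mice, so knockout 69 was below every hemizygous mouse. Elovl3, a fatty acid elongase that is male-biased in mouse liver, had levels of 6.93, 5.17 and -6.45 in knockout mice, against 0.52, 0.34 and 1.73 in hemizygous mice. The 5 sex chromosome transcripts had a median of 3.30, with 1 above without overlap. In wild-type mice 31 and 34 the mean level was 3.23 and 0.42 for female-biased genes and 4.84 and 6.12 for male-biased genes. Xist and Y-linked transcripts moved with these lists, and the parts of genotype and sex in them were not tested.

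**Figure D5:**
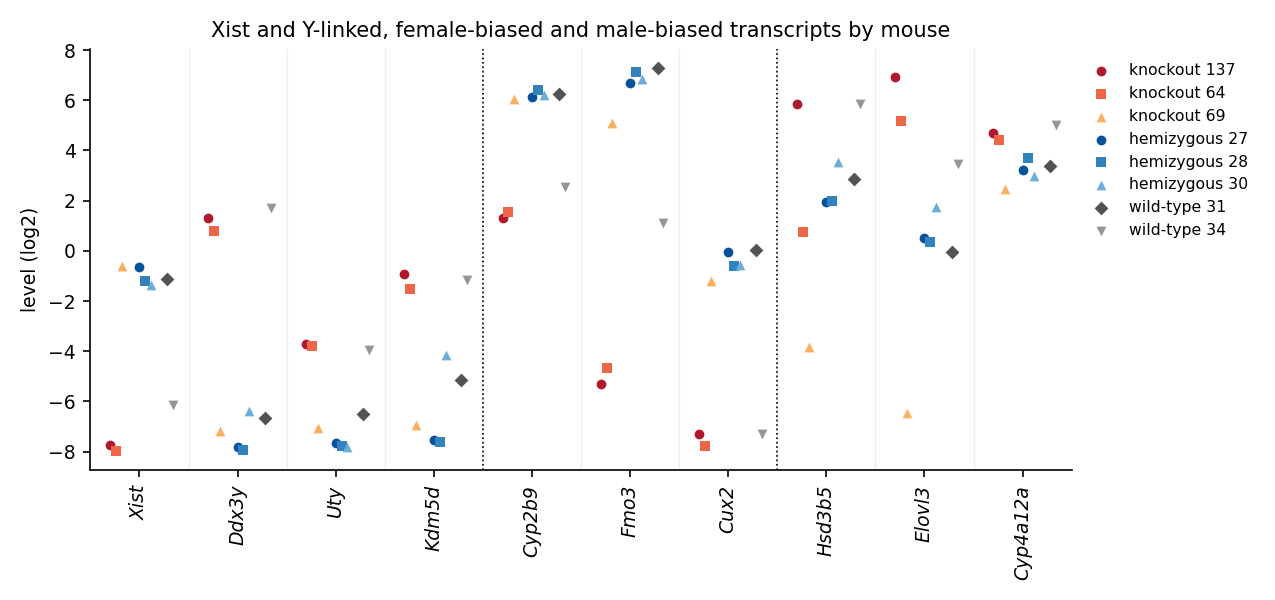
Levels (vertical axis, log2) of Xist and Y-linked transcripts, of female-biased and of male-biased liver genes, separated by dotted lines, 1 point per mouse. Knockout 69 lies with the hemizygous mice in Xist, Ddx3y and Cyp2b9, and knockouts 137 and 64 lie apart from them.

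In the BCL-2 family Bnip3 was the member that passed. The median was -0.08 over 20 members, with 4 above and 3 below without overlap. The 3 below were Mcl1, the deleted gene itself, Bnip3 and Bmf. Bcl2l1, which encodes BCL-XL, had levels of 0.48, 1.15 and 0.62 in knockout mice 137, 64 and 69, against 0.94, 1.41 and 1.45 in hemizygous mice 27, 28 and 30. Bmf, a BH3-only killer, had levels of 0.20, -0.62 and -1.85 in knockout mice, against 1.16, 1.29 and 2.07 in hemizygous mice, a difference of -2.26 ± 0.80 (limma, adjusted p = 0.461). Bcl2a1b, a pro-survival gene of blood cells with near-identical copies, had levels of -0.73, -0.68 and 0.24 in knockout mice, against -2.63, -2.55 and -2.56 in hemizygous mice. The groups overlapped in Bcl2l1 and lay apart in Bmf and Bcl2a1b. Bcl2l11 and Bbc3, which encode the BH3-only proteins BIM and PUMA, overlapped and differed by -0.26 ± 0.48 and 0.81 ± 0.49.

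Death receptor and necroptosis genes had a median of 0.13 over 24 members, with 3 above and 3 below without overlap. Mlkl, the pore-former of necroptosis, had levels of 0.90, 1.53 and 1.15 in knockout mice 137, 64 and 69, against 0.41, -0.10 and -0.38 in hemizygous mice 27, 28 and 30. Every knockout mouse exceeded every hemizygous mouse in Mlkl, which did not pass (limma, adjusted p = 0.486). Targets of p53 had a median of 0.38 over 21 members, with 7 above and 3 below without overlap. Over all genes, beside both lists, the shares without overlap were 15.9% above and 9.4% below. Cdkn1a had levels of -0.72, -0.82 and -0.23 in knockout mice, against -2.84, -1.62 and -1.21 in hemizygous mice. Gdf15, a stress-induced cytokine, had levels of 3.63, 1.84 and 2.35 in knockout mice, against 0.25, -0.37 and 1.56 in hemizygous mice, a difference of 2.13 ± 0.72 (limma, adjusted p = 0.436). Both lay higher in every knockout mouse.

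Stress genes leaned to the higher side. Genes of the unfolded protein and amino acid response had a median of 0.47 over 25 members, with 12 above and 3 below without overlap. By limma 0 passed, and 7 had an unadjusted p under 0.05 on the higher side and 1 on the lower. Hspa5, the endoplasmic chaperone BiP, had levels of 7.22, 7.83 and 8.18 in knockout mice 137, 64 and 69, against 6.67, 6.37 and 6.57 in hemizygous mice 27, 28 and 30. Creld2, a chaperone-like protein of the same compartment, had levels of 4.80, 5.97 and 7.47 in knockout mice, against 4.33, 3.61 and 4.68 in hemizygous mice. In both, knockout 69 was highest. Targets of NRF2, the antioxidant regulator, had a median of 0.48 over 22 members, with 10 above and 3 below. Beside both lists, 15.9% of all genes lay above and 9.4% below without overlap. Hmox1, heme oxygenase, had levels of 2.30, 2.73 and 3.48 in knockout mice, against 1.08, 1.26 and 0.87 in hemizygous mice, a difference of 1.77 ± 0.39 (limma, adjusted p = 0.155). Gclc, the catalytic subunit that starts glutathione synthesis, had levels of 5.81, 5.48 and 5.02 in knockout mice, against 4.31, 3.98 and 4.74 in hemizygous mice. The antioxidant element TGACNNNGC was present in 6 of 19 members with a promoter (31.6%), against 13.99% of all genes with one.

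Immediate early genes had a median of 0.77 over 19 members, or 0.43 with normexp correction, with 7 above and none below without overlap. Nr4a1 had levels of 3.11, 1.71 and 2.65 in knockout mice 137, 64 and 69, against -0.72, 0.50 and -1.08 in hemizygous mice 27, 28 and 30, a difference of 2.92 ± 0.81 (limma, adjusted p = 0.313). Acute phase proteins had a median of 0.40 over 23 members, with 10 above and 1 below without overlap. Saa1 had levels of 6.13, 9.56 and 6.63 in knockout mice, against 3.20, 3.99 and 4.41 in hemizygous mice. Lcn2, which encodes lipocalin-2, had levels of -1.14, 3.80 and 1.41 in knockout mice, against -1.50, -0.20 and -1.06 in hemizygous mice, so that knockout 137 overlapped. In both genes knockout 64 was highest, as it was in the mitosis list. Saa1 and Saa2 are near-identical copies, and their probes may share signal.

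Fetal and tumor-associated liver genes had a median of 1.14 over 19 members, or 0.64 with normexp correction, with 10 above and 1 below without overlap. By limma 0 passed and 8 had an unadjusted p under 0.05, all higher. Afp, alpha-fetoprotein, had levels of -0.27, 1.16 and 0.90 in knockout mice 137, 64 and 69, against -0.65, -1.30 and -1.15 in hemizygous mice 27, 28 and 30. Tff3, a trefoil factor of mucous epithelia, had levels of 0.37, 4.95 and 3.63 in knockout mice, against -2.90, -2.71 and -1.71 in hemizygous mice, a difference of 5.42 ± 1.52 (limma, adjusted p = 0.314). Ly6d, known as a lymphocyte antigen, had levels of 0.24, 3.97 and 2.50 in knockout mice, against -1.83, -2.06 and -1.88 in hemizygous mice. Knockout 137 was the lowest knockout mouse in all 3 and still lay above every hemizygous mouse. In wild-type mice 31 and 34 the levels of Tff3 were -2.33 and 0.88, so wild-type 34 exceeded knockout 137. Those of Ly6d were -2.34 and -2.31. Sox9, a factor of bile duct and progenitor cells, had levels of -0.27, -0.21 and -0.18 in knockout mice, against -1.94, -2.09 and -2.08 in hemizygous mice, and was tight in both groups. Epcam, an adhesion molecule of bile duct cells, was the member below, with -3.33, -4.06 and -4.26 in knockout mice, against -2.99, -2.84 and -2.76 in hemizygous mice.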

How the data were processed

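RNA of 25 liver samples from 18 mice, with 7 samples of tumor tissue not analysed here, was measured on single-colour Agilent arrays. The deposited scanner files hold spot intensity values from Agilent Feature Extraction 10.5.1.1, per the file headers, with processed signals already background-subtracted, and flags of 0 or 1 (other values). The authors' series matrix holds log2 values in the deposited table, with medians between 6.565 and 6.579 on the arrays, and their normalisation is not given in the sources used here. Within each array these values rank the probes as the median spot signals do (Spearman correlation 1). The submitters' processing notes name limma without a version.

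Levels were log2 processed signals minus each array's 75th percentile, averaged over unflagged spots of 41174 probes, with the brightest probe per gene and a filter of well above background on at least 2 of 18 arrays. Of the probes, 24375 (59.2%) had a symbol. limma 3.58.1 in R 4.3.3 fitted 6 groups with 12 residual degrees of freedom, and Benjamini-Hochberg adjustment ran over 27102 features with a threshold of 0.05. The fit was tested on simulated data. Replicates are mice with separate animal numbers. The exact permutation test of 3 against 3 cannot go below 0.1. Coordinates, promoters and symbols were matched to RefSeq, GRCm38.p6.

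Genes named are Mcl1, those past the threshold, up to 12 further genes each way with the smallest p and no overlap, up to 4 members of each list with the smallest p, and a panel of known genes. Members, lists and rules were chosen with earlier results of these data known. Alternatives covered scaling, background correction, filters, probe rule, slide, scan day, Xist level, samples in the fit and leaving out each array. The normexp alternative used median spot signals. Some named genes are not reported here.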

Additional observations from a re-analysis of the deposited data

How the results depend on the processing

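The count of 14 genes, 9 higher and 5 lower in knockout liver, moved with most choices. It was 65 (19 higher, 46 lower) with normexp correction and quantile normalisation, 4 (2 and 2) with the array median, which moved the median difference of all genes to -0.04, against 0.06, and 51 (22 and 29) with the authors' series matrix. It was 30 (18 lower) for genes well above background on all 18 arrays, and the lower count was 3 with no filter. A block for slide gave 46 (34 and 12). The count was 70 (48 and 22) in the 8 arrays of 2 months, 61 (26 and 35) with trend and robust options, and the higher count was 15 with the Xist level as a covariate. By limma 0 passed (0 higher, 0 lower) in the 6 arrays alone, where 4603 had an unadjusted p under 0.05, and 0 with the Xist level in the 8 arrays, where 3957 did, an alternative chosen after seeing the data. Leaving out 1 array gave 0 to 27 genes, 0 to 17 higher and 0 to 10 lower. It was 0 without knockout 64, hemizygous 28 or hemizygous 30, where 1488, 1790 and 1301 had an unadjusted p under 0.05. The highest count came without the non-tumor array 934 of 8 months. Mcl1 differed by -1.65 to -1.37 when 1 array was left out, and passed with normexp correction (-1.39), with trend and robust options (-1.52) and without array 934. Of the values of 207 named genes under the alternatives, 6258 kept their direction and side of the threshold, 184 kept their direction and no longer passed, 100 newly passed, and 22, of 15 genes, changed sign, 0 of them past the threshold on either side. With the slide as a block, Xrcc2 was -0.11, Oit3 0.092, Lcn2 -0.29, Nr1d1 -0.57 and Hsd3b5 3.89. With the Xist level, Hamp2 was 0.073, C6 -0.031, C9 -0.28, Ddx3y -0.061, Kdm5d -0.46 and Cyp4a12a -0.030. With the Xist level in the 8 arrays, C6 was -0.29, C9 -0.35, Kdm5d -0.23, Bbc3 -0.047, Srebf1 0.14 and Cyp4a12a -0.72. Alb was -0.030 with quantile normalisation and -0.06 in the series matrix, and Cyp3a44 was -0.46 as a mean over probes. Leaving out 1 array gave -0.27 to 0.059 for Srebf1 and -4.02 to 0.81 for Hsd3b5. The medians of 12 of 40 lists changed sign under at least 1 alternative. The causes were not tested. No paired analysis was possible because the knockout and hemizygous mice share no animal numbers. Signal over background limits S100a8, Gpnmb, Retnlg, Ccl3 and Prf1 to bounds.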

Other observations

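Further gene groups are given beside the background of 15.9% of all genes above and 9.4% below without overlap. Interferon response genes had a median of 0.07 over 20 members, with 5 above and 3 below without overlap, and this median changed sign under 4 alternatives. Ifi27, an interferon-induced gene, had levels of 6.21, 5.66 and 5.19 in knockout mice 137, 64 and 69, against 4.74, 4.69 and 4.94 in hemizygous mice 27, 28 and 30. Igtp, an interferon-induced GTPase, had levels of 4.33, 3.63 and 4.29 in knockout mice, against 4.99, 4.57 and 4.78 in hemizygous mice. Iron genes had a median of 0.14 over 17 members, with 3 above and 1 below. Hamp, which encodes the iron hormone hepcidin, overlapped, with 6.94, 7.51 and 8.78 in knockout mice, against 7.20, 8.26 and 7.71 in hemizygous mice.

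Cholangiocyte and progenitor markers had a median of 0.15 over 18 members, with 3 above and 3 below. Krt18, a keratin shared by hepatocytes and bile duct cells, had levels of 6.86, 7.54 and 7.61 in knockout mice 137, 64 and 69, against 6.46, 5.96 and 6.19 in hemizygous mice 27, 28 and 30. Erythroid markers had a median of 0.24 over 7 members, with 1 above and 1 below, and this median changed sign under 3 alternatives. Glycolysis isoforms had a median of -0.05 over 23 members, with 6 above and 4 below. Slc2a2, the glucose transporter of hepatocytes, had levels of 4.34, 3.19 and 4.27 in knockout mice, against 5.18, 5.36 and 5.48 in hemizygous mice, a difference of -1.41 ± 0.34 (limma, adjusted p = 0.214). Imprinted growth genes had a median of 0.46 over 13 members, with 5 above and 1 below, or a median of 0.21 with normexp correction, and Phlda2 was the member that passed.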
